A study of Solanum tuberosum and Solanum acaule with 12 samples.

Results

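In the autotetraploid potato cultivar Atlantic (Solanum tuberosum), 119 gene models had one assembled transcript highest in all 3 control libraries and a different one highest in all 3 freezing libraries. They were found among 12140 eligible gene models, 0.98% of them, out of 54896 gene models that had at least 1 transcript placed on them alone. A gene model was eligible if it had 2 or more transcripts that list no other gene model and a summed signal of 5 or more in each of the 6 libraries. The highest transcript in control is called the control-major transcript and the highest after freezing the freeze-major transcript. The members were chosen by these very values, so the levels, shares and differences of the major transcripts are descriptions, and no test is given for any member.

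RNA came from shoot explants of Atlantic. Plants of the freezing group stood in a chamber taken down from 22 °C to -4 °C by 2 °C each hour, and the control group stayed in long days. Each group had 3 biological replicates, with nothing in the labels on how many plants each holds. The wild species Solanum acaule, the other plant of the series, has its own assembly and was not used here.

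A plant gene can give several transcripts by alternative splicing, by different start sites or by different ends. In Arabidopsis thaliana, cold is known to alter splicing of many genes within hours, clock genes and splicing factors among them, and retained introns are a common form. Transcripts of 1 gene can encode different proteins or carry early stop codons that lead to their decay. None of the 54896 gene models and none of the 252591 transcripts was found in the reference table of gene names (0 matches), so the functions of the genes below, and marker genes of the shoot, could not be looked up, and no sequence is shown.

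The values are signal in the form of TPM, a per-length unit, scaled per library. This reading rests on the library totals and the table names, and under it transcripts of 1 gene model can be set beside each other. Library totals ran from 961746 to 1102442, and the depth behind them is unknown. Gene model totals correlated across gene models at 0.956 to 0.965 among the control libraries and at 0.889 to 0.938 among the freezing libraries, with the lowest value between freezing replicates 1 and 2. The members held 0.288% to 0.358% of the signal of each control library and 0.24% to 0.263% of that of each freezing library. The 2 members with the highest totals carried this difference: without Soltu.Atl.03_4G000920 and Soltu.Atl.02_3G011800 the shares were 0.194% to 0.214% in control and 0.206% to 0.24% after freezing, and the groups overlapped. In a bulk sample, a different mix of cells and a different transcript choice within cells cannot be told apart.

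Most eligible gene models kept their highest transcript. The same transcript was highest in all 6 libraries for 10783 gene models, 88.8% of those eligible. The highest transcript varied among the 3 control libraries alone for 388, among the 3 freezing libraries alone for 517 and within both groups for 331, and 2 had a tie. Changing places within a group was more frequent than the switch between groups that defines the 119. The switch is the stricter condition, as all 3 libraries of each group have to agree, so these counts are not of like events.

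The switch was narrow in most members. The lead of a library is its own group's major transcript over the other group's major, on the log2(signal + 1) scale. The smallest of the 6 leads of a gene model had a median of 0.15 and a highest value of 1.205. It reached 1.5-fold in 6 members and 2-fold in 1. On the plain ratio of signals, 49 of the 119 had a smallest lead under 1.1-fold, so that in at least 1 library their first ranks were close to a tie. Other transcripts of the gene model could be closer still. The smallest ratio of the first to the next transcript, whichever it was, stayed under 1.5-fold in 116 members and under 2-fold in all 119, with a median of 1.11.

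In shares of the gene model's total, the control-major transcript held a median of 53.1% in control and 30.6% after freezing. The freeze-major transcript held a median of 31.0% in control and 50.5% after freezing. The other transcripts together were minor in most members: both majors made up a median of 85.4% of the total. The freeze-major was already the next highest transcript in all 3 control libraries in 90 members, and the control-major stayed next highest in all 3 freezing libraries in 84. In 25 members each major held over 50% in every library of its own group.

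The share that moved between transcripts is the sum of all gains in mean share, in percentage points of the total. It had a median of 29.6 points in the members, from 5.39 to 68.8. In the gene models with a constant highest transcript the median was 4.09 points and the highest 47.6. The rule asks for a change of rank, so larger moves in the members follow from the choice.

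**Figure D1:**
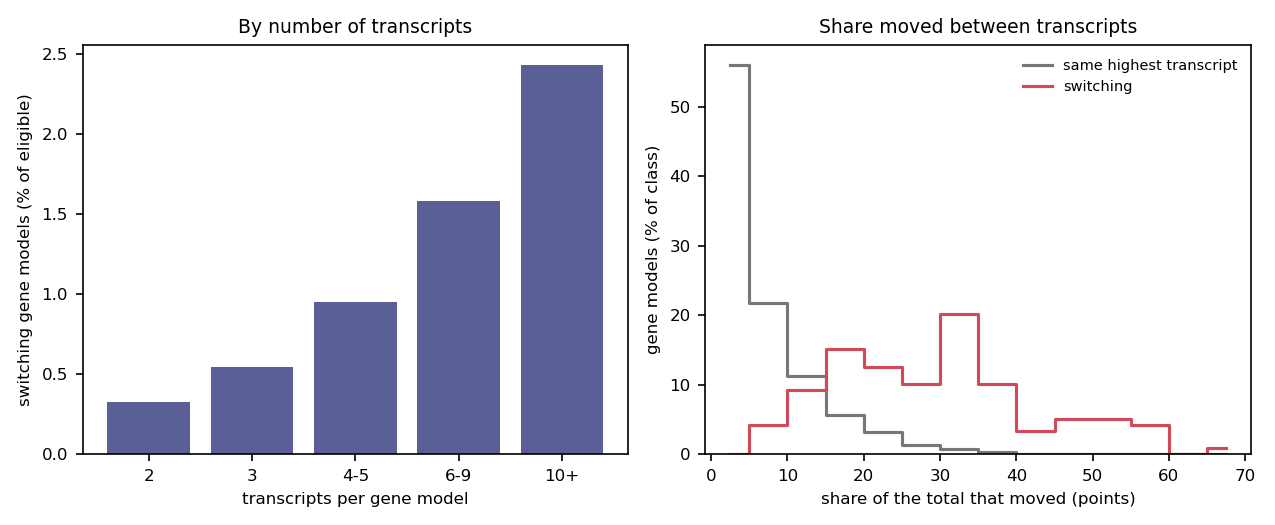
Left, switching gene models as a percentage of eligible gene models by the number of transcripts per gene model. Right, distribution of the share of the total that moved between transcripts from control to freezing, in percentage points in steps of 5, for the 119 switching gene models and for those with a constant highest transcript; the percentage on the left runs from 0.328% with 2 transcripts to 2.43% with 10 or more, and on the right the switching gene models reach 68.8 points.

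The largest smallest lead was in Soltu.Atl.02_1G003950, with both majors placed from 13416702 to 13421914 on copy 1 of chromosome 2. The copy number is the digit after the chromosome in the placement table, which names no genome build. Digits from 0 to 4 occur in this tetraploid. The sources do not explain digit 0, so copy 0 may not be a separate chromosome copy. Its control-major, AtlantEVm020231t11, had a signal of 7.61, 6.34 and 6.62 in control replicates 1 to 3 and of 0.931, 0.565 and 0.934 in the freezing replicates. Its freeze-major, AtlantEVm020231t9, had 2.00, 2.12 and 2.31 in control and 11.7, 5.43 and 5.67 after freezing. Neither transcript had overlapping groups, and freezing replicate 1 stood well above the other freezing libraries for the freeze-major. The first rank in control was narrower than the lead, since AtlantEVm020231t6 had 6.45, 5.69 and 4.56 in control, next to the control-major, and 0.484, 0.462 and 1.398 after freezing. The freeze-major share was 12.3% ± 1.34 in the control libraries and 60.5% ± 11.9 after freezing (SD, n = 3 per group), and the total was lower after freezing, 12.2 ± 3.24 against 17.5 ± 0.837.

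In Soltu.Atl.04_0G001520, with both majors from 2178051 to 2189874 on copy 0 of chromosome 4, the control-major was listed at 0 in every freezing library. This transcript, AtlantEVm006373t2, had 2.80, 3.24 and 2.14 in the control replicates. The freeze-major AtlantEVm006373t5 had 1.004, 0.715 and 0.929 in control and 2.75, 2.13 and 2.21 after freezing. The groups did not overlap for either, while the totals did, at 7.92 ± 1.55 and 6.73 ± 1.36 (SD, n = 3 per group). All of these levels are low, and 0 in such a table can also be a failed estimate.

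Soltu.Atl.01_4G034060 showed the same form at a higher level, with both majors from 66498597 to 66501283 on copy 4 of chromosome 1. The control-major AtlantEVm006539t1 had 6.37, 5.66 and 6.34 in the control libraries and was listed at 0 in the 3 freezing libraries. The freeze-major AtlantEVm006539t3 had 3.57, 2.49 and 2.51 in control and 10.8, 10.8 and 6.79 after freezing. Another transcript, AtlantEVm006539t4, was also higher in every freezing library, at 8.19, 7.93 and 6.23 against 3.21, 3.36 and 2.83 in control, so the first rank in freezing replicate 3 was close. The freeze-major share was 19.6% ± 2.16 in the control libraries and 48.2% ± 2.19 after freezing (SD, n = 3 per group), while totals overlapped. A control-major listed at 0 in all 3 freezing libraries occurred in 3 members. The remaining one, Soltu.Atl.06_4G008860, was named after its values were seen. There AtlantEVm001179t2 held 48.4% ± 5.39 in control (SD, n = 3), and AtlantEVm001179t4 held 29.99% ± 3.30 in the control libraries and 54.7% ± 5.82 after freezing (SD, n = 3 per group). No freeze-major was listed at 0 in all 3 control libraries (0 of 119).

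Soltu.Atl.02_4G012880 was weakly expressed, and its majors shared a start at 26728461 on copy 4 of chromosome 2. The control-major AtlantEVm001219t5, placed to 26738322, had 1.93, 1.81 and 2.74 in control and 0.919, 1.05 and 0.176 after freezing. The freeze-major AtlantEVm001219t15, placed to 26736642, had 0.858, 0.607 and 0.826 in control and 2.28, 2.31 and 2.93 after freezing. AtlantEVm001219t8 came near the freeze-major in freezing replicate 1, at 1.97. Both majors crossed without overlap of the groups, and the total hardly differed, at 6.77 ± 0.715 in the control libraries and 7.33 ± 0.485 after freezing (SD, n = 3 per group).

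Soltu.Atl.11_4G002600 had the highest level of these 6, with both majors from 3015649 to 3018782 on copy 4 of chromosome 11. Its control-major AtlantEVm019604t3 had 24.7, 21.5 and 22.4 in control and 5.06, 8.01 and 8.02 after freezing. Its freeze-major AtlantEVm019604t1 had 11.8, 13.4 and 11.9 in control and 15.6, 15.8 and 13.1 after freezing, with groups that overlap. The change of rank thus went with a lower control-major more than with a higher freeze-major, and the total was lower, 23.9 ± 1.82 against 36.3 ± 1.43 (SD, n = 3 per group).

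In Soltu.Atl.07_2G001020, from 1024442 to 1032509 on copy 2 of chromosome 7, the freeze-major carried the clearer difference. AtlantEVm006419t4 had 1.33, 1.47 and 1.495 in control and 4.99, 3.999 and 4.58 after freezing. The control-major AtlantEVm006419t2 had 6.11, 5.89 and 3.59 in control and 2.98, 1.19 and 1.92 after freezing, so that control replicate 3 came near the freezing libraries. In that control library AtlantEVm006419t1 had 3.21, just under the control-major. After freezing, AtlantEVm006419t3 stood just under the freeze-major, with 1.36, 1.58 and 1.80 in control and 4.0, 3.16 and 4.1 after freezing.

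**Figure D2:**
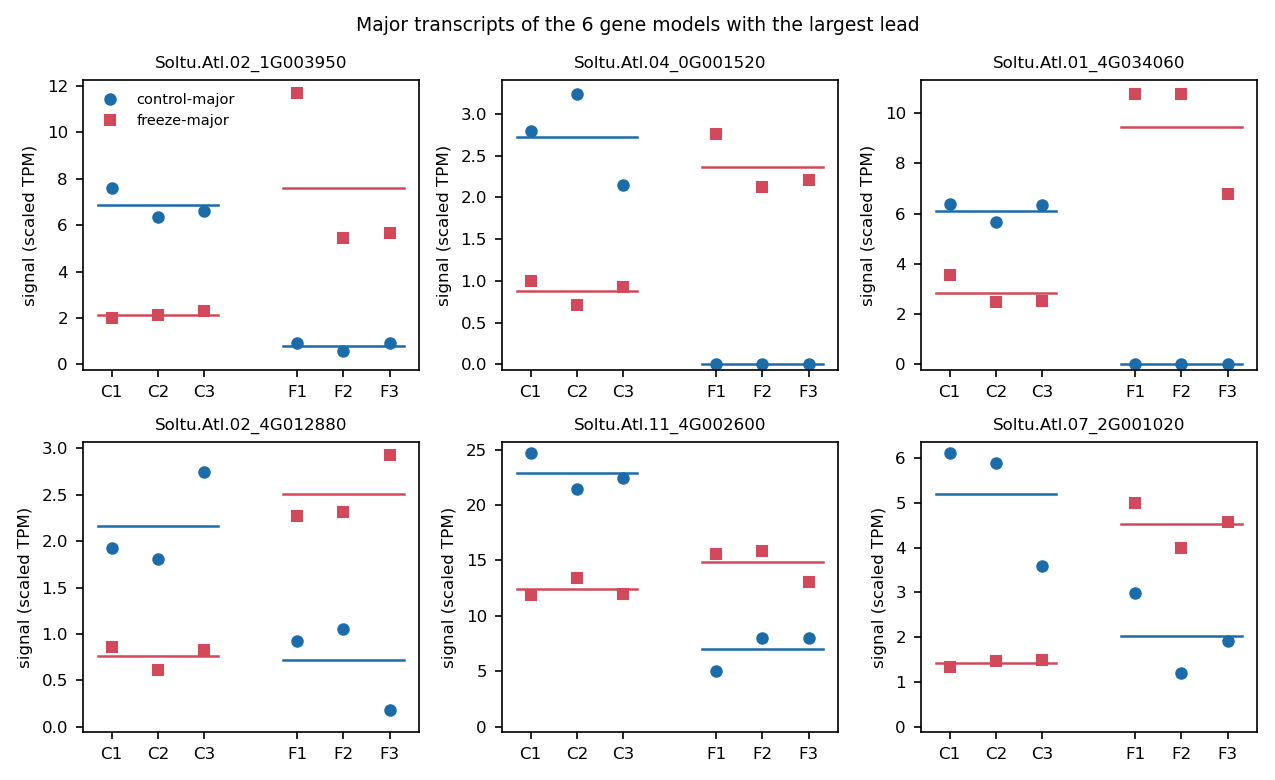
Signal (scaled TPM) of the control-major transcript (circles) and the freeze-major transcript (squares) in each control (C1 to C3) and freezing (F1 to F3) library for the 6 gene models with the largest smallest lead; lines are group means. In Soltu.Atl.02_1G003950 the freeze-major lies at 2.00 to 2.31 in control and at 5.43 to 11.7 after freezing, and in Soltu.Atl.04_0G001520 and Soltu.Atl.01_4G034060 the control-major is at 0 in all freezing libraries.

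Larger shifts of share were found in gene models with a narrower lead in some library; these were picked after their values were seen. In Soltu.Atl.01_1G010700, with 68.8 points moved, the control-major AtlantEVm007465t3 had 15.8, 18.4 and 13.9 in control and 2.08, 2.06 and 4.19 after freezing. The freeze-major AtlantEVm007465t1 had 0.838, 1.195 and 0.604 in control and 7.86, 5.61 and 5.04 after freezing. Nearly all of the gene model's signal in control came from the control-major, at 90.9% ± 2.68 (SD, n = 3), and it held 22.2% ± 6.58 after freezing (SD, n = 3).

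A minor transcript in control became the highest after freezing in other cases too. In Soltu.Atl.05_1G016930 the share of AtlantEVm005450t9 was 4.53% ± 0.395 in the control libraries and 62.3% ± 4.14 after freezing (SD, n = 3 per group). In Soltu.Atl.01_1G011300 the share of AtlantEVm002784t35 was 6.94% ± 2.74 in the control libraries and 51.9% ± 7.23 after freezing (SD, n = 3 per group). The difference was that the control-major of Soltu.Atl.01_1G011300 overlapped between groups, at 5.29 ± 0.822 and 4.19 ± 1.88, so the freeze-major was added on top of it and the total was 6.29 ± 1.15 in the control libraries and 13.9 ± 3.20 after freezing (SD, n = 3 per group). In 5 members the freeze-major stayed under 1 in all 3 control libraries, and in 5 the control-major stayed under 1 in all 3 freezing libraries.

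Both majors differed in opposite directions in some members, and in others 1 of them carried the switch. The control-major was lower after freezing without overlap of the groups in 75 of the 119, beside 17.3% of all 75155 transcripts at 1 or more in at least 3 libraries. The freeze-major was higher without overlap in 73, beside 18.1% of all transcripts. The reverse occurred too, with 2 control-majors higher and 3 freeze-majors lower without overlap. The rule fixes the order of both majors in each group and so favours the more frequent directions. Nothing is read from the excess. Both held in 42 members, the lower control-major alone in 33, the higher freeze-major alone in 31, and neither in 13.

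The totals followed this split. Among the 42 members with both, the totals of control and freezing overlapped in 31, were higher after freezing in 6 and lower in 5. Among the 33 with a lower control-major alone, the total was lower without overlap in 15 and higher in 0. Among the 31 with a higher freeze-major alone, it was higher in 24 and lower in 0. Since a major is part of its total, these counts are linked by construction. Over all members, the total was higher without overlap in 30, beside 17.1% of the 37846 gene models at the same minimum, and lower in 20, beside 15.2%. These are 25.2% and 16.8% of the members. Over the 12140 eligible gene models, which meet the same conditions on transcripts and level, the total was higher in 22.2% and lower in 8.86%, and the difference from the members was not tested. On the scale of mean log2(signal + 1), the total differed by less than 1.5-fold in 95 members and by 2-fold or more in 8. Its median difference on this scale was 0.05, beside 0.11 over the 12140 eligible gene models.

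**Figure D3:**
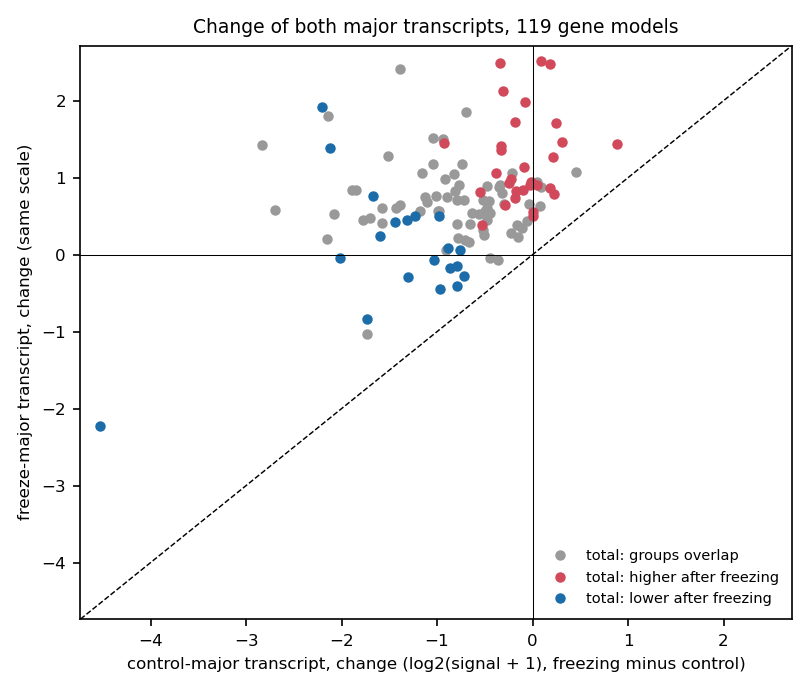
Change of the control-major transcript (horizontal) and of the freeze-major transcript (vertical), freezing minus control on the log2(signal + 1) scale, 1 point per gene model, coloured by whether the total was higher or lower after freezing without overlap of the groups; the dashed line marks equal change. All points lie above the line, as the rule requires, most of them in the upper left, and Soltu.Atl.03_4G000920 lies far to the lower left.

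The 4 most abundant members switched by thin leads, 0.03 to 0.15 on the log2 scale at their smallest. Soltu.Atl.03_4G000920 had the highest mean total and also the most reduced one, 765 ± 320 in the control libraries and 67.6 ± 44.8 after freezing (SD, n = 3 per group; a log2 difference of -3.58). Its control-major AtlantEVm034950t2 had 660, 307 and 671 in control and 9.99, 38.4 and 24.4 after freezing. Its freeze-major AtlantEVm025384t1 had 297, 73.6 and 159 in control and 16.5, 73.4 and 25.5 after freezing. Both transcripts were thus lower in every freezing library than in any control library, the freeze-major only just, since control replicate 2 and freezing replicate 2 were almost level. In freezing replicate 3 the lead was 25.5 over 24.4. They carry different assembly numbers and overlap only in part, from 731507 to 731913 and from 731814 to 732433 on copy 4 of chromosome 3.

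Soltu.Atl.02_3G011800 followed at a mean total of 510 ± 172 in the control libraries and 210 ± 112 after freezing (SD, n = 3 per group). Its majors do not overlap at all, with AtlantEVm019753t1 from 27349351 to 27350560 and AtlantEVm019777t3 from 27351951 to 27353988 on copy 3 of chromosome 2. The first had 258, 132 and 252 in control and 42.4, 98.0 and 54.1 after freezing. The freeze-major had 180, 108 and 205 in control and 43.7, 141 and 74.6 after freezing, and its lead in freezing replicate 1 was 43.7 over 42.4. The control-major was lower without overlap, while the groups of the freeze-major and of the total overlapped.

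In Soltu.Atl.10_0G014550, on copy 0 of chromosome 10, both majors start at 25113837. AtlantEVm002774t5, placed to 25118686, had 75.4, 95.0 and 115 in control and 69.7, 166 and 85.5 after freezing. The shorter AtlantEVm002774t15, placed to 25115041, had 66.1, 83.9 and 59.5 in control and 88.5, 185 and 129 after freezing. Only the shorter transcript was higher without overlap, and freezing replicate 2 was the highest library for both. In Soltu.Atl.04_3G004770, on copy 3 of chromosome 4, the shares of AtlantEVm010385t11 and AtlantEVm010385t17 were 53.4% ± 3.41 and 45.7% ± 3.24 in the control libraries and 45.5% ± 3.55 and 53.2% ± 2.64 after freezing (SD, n = 3 per group). In control replicate 2 their signals were 54.6 and 53.6, close to a tie.

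The largest increases of the total came with a higher freeze-major beside a control-major that overlapped between groups. In Soltu.Atl.08_2G002240 the total was 9.45 ± 1.75 in the control libraries and 28.5 ± 14.4 after freezing (SD, n = 3 per group). The total of this gene model differed by 1.40 in mean log2(signal + 1). Its freeze-major AtlantEVm001149t2 had 2.23, 2.31 and 0.00 in control and 10.5, 7.55 and 17.8 after freezing, while AtlantEVm001149t1 had 2.44, 3.90 and 3.47 and then 3.43, 2.11 and 7.07. Both are placed from 4010127 to 4015141 on copy 2 of chromosome 8. Further transcripts took part in this increase. AtlantEVm001149t3 had means of 2.03 in control and 4.63 after freezing, and AtlantEVm001149t7 of 1.04 and 2.92. AtlantEVm001149t6 went the other way, with means of 0.576 and 0.0023, and AtlantEVm001149t9 stayed at 0.038 and 0.037. In Soltu.Atl.04_1G004680, on copy 1 of chromosome 4, the total was 31.1 ± 14.7 and 78.4 ± 29.3 (SD, n = 3 per group). The freeze-major AtlantEVm007052t12 had 5.51, 4.32 and 12.8 in control and 47.4, 68.9 and 25.4 after freezing. The control-major AtlantEVm006936t12 stayed at 22.1 ± 9.53 and 23.1 ± 7.51 (SD, n = 3 per group). In freezing replicate 3 the freeze-major led the control-major by only 25.4 over 23.5. Both start at 6219270 and the freeze-major ends earlier, at 6223470 against 6227673.

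The next largest decrease of a total was in Soltu.Atl.08_0G003200, on copy 0 of chromosome 8, which had 2 transcripts only. The longer AtlantEVm035483t1, from 3578758 to 3580627, had 9.48, 8.40 and 10.4 in control and 5.73, 4.67 and 4.17 after freezing. The shorter AtlantEVm035483t2, from 3578917 to 3579232 within it, had 10.9, 10.02 and 11.8 in control and 4.07, 2.39 and 1.65 after freezing. Both were lower in all freezing libraries, and the longer one became the higher. In the opposite sense, Soltu.Atl.04_4G013660, named after its values were seen, had both majors higher, with AtlantEVm003828t6 at 6.21 ± 0.680 in the control libraries and 12.3 ± 1.51 after freezing and AtlantEVm003828t9 at 5.02 ± 0.412 and 15.5 ± 3.14 (SD, n = 3 per group). Its first transcript led the next by only 1.03-fold in control replicate 3 and 1.06-fold in freezing replicate 1, close to ties.

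Members differed in how their majors are placed. Both majors carried the same assembly number, the identifier before the final t and number, in 98 of the 119, and different ones in 21. Of the 98, 42 had majors with the same start and end, 27 the same end, 20 the same start, 8 another overlap and 1 no overlap. Of the 21, 12 had majors that do not overlap. With the same start and end, the placement table does not say where 2 transcripts differ. Majors of different assembly numbers without overlap are separate pieces of a gene model or separate transcription units, which the table does not tell apart.

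Where the placed lengths differed, the freeze-major was more often the shorter. It was shorter in 54 members, longer in 22 and equal in 43. Its length was 50% or less of the control-major's in 31 members and at least 2-fold in 6. Among the 98 with the same assembly number the counts were 42 shorter, 14 longer and 42 equal. Other gene models showed the same order. Between the transcript with the largest gain and that with the largest loss of mean share, the gaining one was shorter in 43.7% and longer in 16.8% of the members, and shorter in 35.7% and longer in 20.4% of the gene models with a constant highest transcript. In the 2402 of the latter with at least 10 points moved, these were 39.6% and 12.9%. Lengths are genomic, introns included, and the strand is not given, so starts and ends cannot be assigned to the 5′ or 3′ side.

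**Figure D4:**
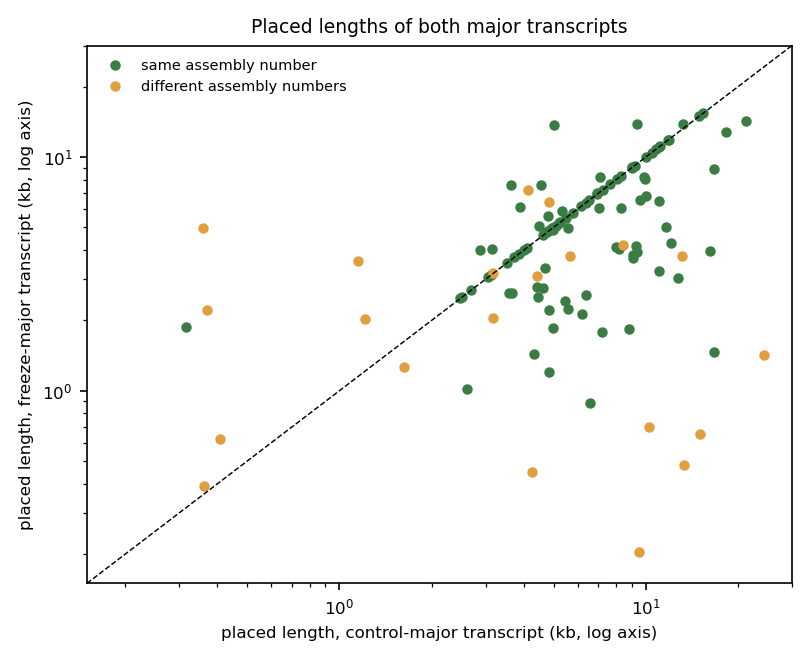
Placed genomic length of the control-major (horizontal) and of the freeze-major (vertical) in kilobases on log axes, 1 point per gene model, coloured by whether both carry the same assembly number; the dashed line marks equal length. Of the 119 points, 43 lie on the line, 54 below it and 22 above it.

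Some assembly numbers gave members on more than 1 chromosome copy. In 5 cases, 2 members shared an assembly number, and each of the 5 pairs lay on 1 chromosome number with 2 different copy digits. The major transcripts differ between the members of a pair, since each lists 1 gene model only. In the pair of AtlantEVm006105, the freeze-major of Soltu.Atl.03_3G028800 was AtlantEVm001739t5, of another assembly number, and did not overlap its control-major. Whether the members of a pair make the same switch was not tested. The 2 pairs with the largest lead are described here. AtlantEVm020231 gave the switch of Soltu.Atl.02_1G003950 on copy 1 and that of Soltu.Atl.02_3G004880 on copy 3, from 18741214 to 18746990. On copy 3, AtlantEVm020231t1 had 10.6, 10.6 and 11.4 in control and 2.44, 2.58 and 1.06 after freezing, and AtlantEVm020231t3 had 4.92, 4.08 and 4.69 in control and 6.36, 2.99 and 4.26 after freezing. Here the control-major was lower in every freezing library, and the freeze-major overlapped between groups, unlike on copy 1. On copy 4, Soltu.Atl.02_4G005180 moved 39.0 points, but its highest transcript was not the same within a group.

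AtlantEVm006373 gave members on copies 0 and 2 of chromosome 4, where the meaning of copy 0 is not explained. On copy 2, in Soltu.Atl.04_2G006710 from 8008054 to 8019934, AtlantEVm006373t1 had 7.32, 7.47 and 7.48 in control and 2.02, 1.47 and 1.01 after freezing. AtlantEVm006373t3 had 2.17, 1.90 and 1.63 in control and 3.12, 2.62 and 3.09 after freezing. As on copy 0, both groups were apart for both transcripts. In freezing replicate 1 AtlantEVm006373t7 was level with the freeze-major, at 3.11. AtlantEVm010335, picked after its values were seen, gave Soltu.Atl.01_1G025090 and Soltu.Atl.01_3G026910 on chromosome 1, whose freeze-major shares were 35.4% ± 8.25 and 42.3% ± 3.66 in the control libraries and 61.3% ± 3.49 and 71.4% ± 4.47 after freezing (SD, n = 3 per group), with totals near 30 in both groups. On copy 2 of that chromosome Soltu.Atl.01_2G031080 kept its highest transcript, with 8.30 points moved. On copy 4, Soltu.Atl.01_4G028640 moved 25.8 points, and its highest transcript was not the same within a group. Reads that match several copies cannot be followed in these tables, so 2 copies may share part of their signal.

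Gene models outside the 119 that hold transcripts of the members' assembly numbers also had larger shares moved than the eligible gene models that are no member. There were 244 such gene models, 130 of them eligible. Their highest transcript was the same in all 6 libraries in 70.8%, against 89.7% of the 12021 eligible gene models that are no member. The median share moved was 12.1 points in the 130 and 4.78 points in the 12021. They also had more transcripts, a median of 6 against 4, and the part of this in the difference was not tested. The 12021 include the 130. The 130 were picked through the members, and so through the same 6 libraries, and may share signal with them. Nothing is therefore read from the difference.

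Switching gene models were more frequent among those with many transcripts and a low level. They made up 0.328% of the 2746 eligible gene models with 2 transcripts, 0.543% with 3, 0.953% with 4 or 5, 1.58% with 6 to 9 and 2.43% of the 863 with 10 or more. By mean total, the share was 1.23% at 5 to 10, 1.18% at 10 to 20, 0.742% at 20 to 50 and 0.419% at 50 or more. By chromosome it ran from 0.703% on chromosome 7 to 1.30% on chromosome 5, and by copy from 0.824% on copy 2 to 1.32% on copy 4. These shares were not tested.

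The number of gene models chosen depended on which libraries the rule used. It was applied to 5 libraries, and the sixth was then read. The 119 are chosen every time and have their own group's major highest in the sixth by construction. A further gene model can show its own group's major there only with a sum under 5 or a tie in that library. Both parts of the split are thus fixed by the rule, apart from such cases. With control replicate 1 left out, 154 gene models were chosen, and in the library left out 125 of them had the control-major highest, 27 the freeze-major and 2 another transcript. The own-group counts were 121 of 200 for control replicate 2, 122 of 147 for control replicate 3, and 120 of 186, 129 of 197 and 120 of 150 for freezing replicates 1, 2 and 3. The library left out showed its own group's major in 60.5% to 83.0% of the gene models chosen and the other group's major in 15.6% to 38.0%. That most of the further gene models had another transcript highest in the library left out follows from the rule. It was the other group's major in 76 of them for control replicate 2 and in 23 for control replicate 3. These shares describe how the choice narrows with the sixth library and lend the switches no support. The 6 choices share most of their gene models and libraries and are not independent, and no p-value is given.

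**Figure D5:**
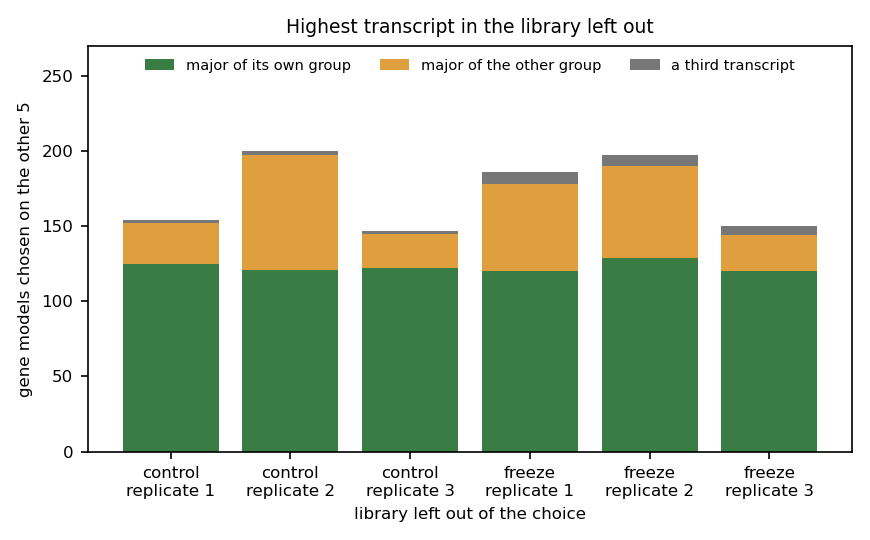
Gene models chosen by the rule on 5 libraries, for each library left out in turn, split by which transcript was highest in the library left out: its own group's major, the other group's major or another one. The own group's part is between 120 and 129 gene models in each bar, 119 of them by construction, and the other group's part is between 23 and 76.

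For comparison, a library disagreed with the other 2 of its group, where those had the same highest transcript, in 1.42% of the eligible gene models for control replicate 1 up to 2.67% for freezing replicate 3. The disagreement between libraries of 1 group over 12140 gene models, from 172 to 324 gene models per library, was larger in number than the 119. The conditions are unlike, however. A disagreement takes 1 library against 2 that agree, and a member takes 3 agreeing libraries in each group. The counts therefore do not say whether the switches exceed the variation within groups.

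The threshold of 5 cut through a continuous range. Just inside it, Soltu.Atl.02_4G003390 had a lowest total of 5.01 and Soltu.Atl.04_4G012960 one of 5.06. In the first, AtlantEVm009114t7 had 4.04, 4.41 and 3.07 in control and 1.29, 1.36 and 1.67 after freezing, and AtlantEVm009114t8 had 2.32, 2.28 and 2.71 and then 3.71, 3.93 and 3.96. In the other, the share of AtlantEVm010313t3 was 58.1% ± 3.84 in the control libraries and 22.7% ± 12.3 after freezing (SD, n = 3 per group). Just outside were Soltu.Atl.02_2G029170, with a lowest total of 4.80, and Soltu.Atl.12_0G003990, with one of 4.77. At their smallest, the leads on the log2 scale were 0.13 and 0.18 for the 2 inside and 0.05 and 0.06 for the 2 outside.

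Fits over all features with limma, on log2(signal + 1) with Benjamini-Hochberg adjustment at 0.05, serve as background only, since they use the contrast that chose the members. Limma called 9 of the 119 totals, 6 higher and 3 lower, beside 7.07% of the 37846 gene models tested, 3.18% higher and 3.89% lower. It called 49 of the control-majors, 48 of them lower, and 41 of the freeze-majors, 40 of them higher, beside 13.8% of the 75155 transcripts tested, 6.93% lower and 6.87% higher. The called share of the totals was near the background. The rule favours calls among the majors, and nothing is read from those counts. These counts varied with the libraries used. Limma called 0 totals without control replicate 1 or 3, where 25 and 30 had an unadjusted p under 0.05, 2 without control replicate 2 and 1 without freezing replicate 3. Of the control-majors limma called 15, 20 or 19 when control replicate 1, 2 or 3 was dropped, and 29 when freezing replicate 3 was. Of the freeze-majors the corresponding numbers were 20, 20 and 23, and 21. Over all 75155 transcripts they were 3375, 4275 and 4433, and 5378. Without freezing replicate 1 or 2 the counts were 10 and 13 totals, 42 and 44 control-majors, and 38 and 44 freeze-majors. Over all features these 2 settings gave 2462 and 4037 gene models, and 9125 and 10895 transcripts.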

How the data were processed

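The submitters' processing notes list Trimmomatic 0.39 and DESeq2 without a stated role. Not given in the sources used here are aligner, assembler, abundance estimator and build. Per assembled transcript and library the authors deposited 1 signal value, apparently TPM scaled by TMM, which is read from the values and table names. They are not counts, depth is unknown, and precision rests on 3 replicates per group. A deposited table without header lists the gene models and the placement of 88.9% of the 252591 transcripts; 157812 list 1 gene model. All value columns were matched to samples by name, and 0 were left over.

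The rule was applied in pandas 2.3.3. Members and lists were chosen with earlier results of these data known. Limma 3.58.1 in R 4.3.3, with its trend option and a two-sided test, was fitted to all gene models and transcripts at 1 or more in at least 3 libraries. The limma fit was tested on simulated data. The code of the rule was run on gene models with a constant highest transcript. In some of them the freezing values of this transcript and the next were exchanged. That makes a switch by construction and lends the members no support. Of fold differences, the pseudocount of 1 understates those of low transcripts. Named by rule were the 6 members with the largest smallest lead, the 4 highest totals, the 2 largest increases and 2 largest decreases of the total, 2 gene models on each side of the threshold, and 2 assembly numbers on the most copies. For these, ties were ordered by lead. Members named after their values were seen are marked. Replicate numbers were not used as pairs.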

Additional observations from a re-analysis of the deposited data

How the results depend on the processing

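The 119 switching gene models became 330, 51 and 15 with a minimum sum of 1, 10 and 20, and 390 with transcripts of several gene models counted in each, which kept 114 of the 119. With transcripts of the same assembly number summed they became 19, of which 13 were among the 119. In 98 of the 119 both majors carry the same assembly number, so the sum removes the switch between them by construction. A lead of at least 2-fold in every library left 1, or 3 with a pseudocount of 0.1. Leaving out a library gave 147 to 200, as the rule then asks for less; 200, 186 and 197 were found without control replicate 2 and freezing replicates 1 and 2. The part of the gene models chosen on 5 libraries whose own-group major was highest in the sixth, which holds the 119 by construction, was 71.3% over the 6 choices and 72.3% with a minimum sum of 20. The 2674 gene model totals called by limma became 723 when the filter was stricter, with the split turned to 458 higher and 265 lower from 1203 and 1471, and 426 (177 higher, 249 lower) with the replicate block. Leaving out a library gave 227 to 4037, with 227, 300 and 542 without control replicates 1, 2 and 3, 692 lacking freezing replicate 3 and 4037 lacking freezing replicate 2. The 10374 transcripts called became 4993 with the replicate block and 3375 to 10895 on leaving out a library, with under 5378 for each control replicate and 5378 for freezing replicate 3. Under the block, limma called 0 of the members' totals (33 at an unadjusted p under 0.05), 19 of their control-majors and 20 of their freeze-majors. Over all 37846 gene models, 8415 had an unadjusted p under 0.05 with the block. The causes were not tested. The deviations of same-numbered libraries correlated at 0.11, -0.28 and 0.01, and those of unlike numbers at -0.26 to 0.23. With 3 libraries per group, these values cannot decide whether same-numbered libraries are pairs. Unknown depth and unknown assignment of reads shared by overlapping transcripts limit all shares.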
